A study of Mus musculus with 2 samples.

Results

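The genes described here move cholesterol and other lipids through the cell and out of it. They are 10 genes found by symbol among the 53801 genes of each count table of sorted microglia, the resident macrophages of the brain: the nuclear receptors Nr1h2 and Nr1h3, the efflux transporters Abca1 and Abcg1, the lysosomal genes Lipa, Npc1 and Npc2, and the storage and carrier genes Soat1, Plin2 and Fabp5. The rule names them by function and uses no measured value. Both libraries came from sham-operated Cx3cr1(CreER/wt) mice, a C57BL/6 line with a tamoxifen-inducible Cre recombinase driven from one Cx3cr1 allele, which served as the wild-type background in a study of ischemic stroke. Sham surgery is named in the sample titles, whereas the treatment field reads none. Per the labels the mice were male and 8 to 10 weeks old, whereas the study's methods describe an older range and both sexes. Tamoxifen was given at 75 mg/kg per day for 4 days, and surgery followed 14 days after the first dose. At 3 days after sham surgery, CD11c–Ly6G–CD11b+CD45low cells were sorted from the left hemisphere, each library from 1 mouse. Libraries of stroke-operated mice were not analysed here, so there is 1 group of 2 libraries, and the comparisons are between the genes and between the 2 mice.

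Microglia take up myelin debris, lipoproteins and dead cells, and the cholesterol in that cargo is freed in the lysosome by the acid lipase that Lipa encodes. NPC2, a small soluble carrier, hands the freed cholesterol to NPC1 in the lysosomal membrane, from which it reaches the rest of the cell. Oxysterols formed from excess cholesterol bind the liver X receptors (LXRα from Nr1h3 and LXRβ from Nr1h2), which pair with retinoid X receptors and switch on genes for efflux, among them Abca1 and Abcg1. Cholesterol that is not exported is esterified by SOAT1 and kept in lipid droplets, which perilipin 2 (Plin2) coats, and FABP5 carries fatty acids inside the cell.

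Counts assigned to genes summed to 23381026 for the first sham mouse (library 1) and 41142609 for the second (library 2), so counting error was smaller in library 2. Levels are given per 1000000 such counts (CPM). A gene with 0 counts could still have up to 0.128 CPM in library 1 or 0.0729 CPM in library 2. Intervals describe counting alone, since reads copied by PCR do not each stand for a molecule. The 10 microglia markers (Tmem119, P2ry12 and others) took 5.12% and 4.72% of the counts, and none was at 0. In CPM, genes behind these sums moved in opposed directions, as Csf1r had 14910 and 5934 CPM and P2ry12 had 4575 and 7450 CPM. After the adjustment for GC content and transcript length described below, their log2 ratios (library 2 over library 1) were both positive, at 0.21 and 0.65. The libraries differed in RNA of other cells. The 18 genes of immature and mature neutrophils made up 0.518% of library 1 and 6.29% of library 2, although the gate left out Ly6G+ cells. Their part in the ratios between the mice was not tested. In bulk RNA, fewer cells of a type and less RNA per cell cannot be told apart. Of the 13445 counted genes (10 counts or more in each library), 31.7% differed by more than 2-fold in CPM between the mice: 25.9% were lower and 5.74% higher in library 2. Their median log2 ratio of library 2 over library 1 was −0.26, and edgeR's common biological coefficient of variation was 0.479. Set beside this background, 2 of the 10 genes, Abca1 and Abcg1, differed by more than 2-fold, and both were lower in library 2. With TMM scaling 1 of 10 did, Abcg1, against a background of 28.5% (19.7% lower and 8.78% higher), and with DESeq2 size factors also 1, against 28.3%. A share of 2 in 10 is below the background share. All 10 passed the count filter. Their sum was 1782 CPM in library 1 against 1499 CPM in library 2. Nearest to the 2-fold limit were Abca1, past it with a log2 ratio of −1.07, and Plin2, short of it with 0.72.

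**Figure D1:**
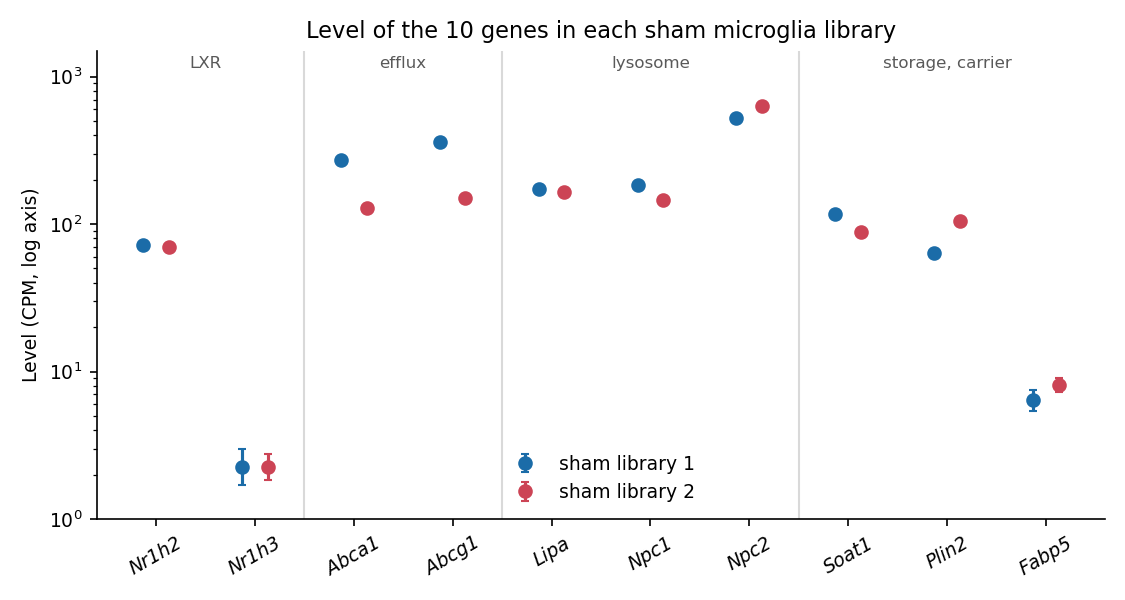
Level of each of the 10 genes in CPM (log axis) in sham library 1 (blue) and sham library 2 (red), with exact 95% Poisson intervals of the counts. Npc2 was highest and Nr1h3 lowest in both libraries, and Abca1 and Abcg1 had the widest gaps between the libraries.

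The sensors of the pathway were present at very unequal levels, and the balance was nearly the same in both mice. Nr1h2, which encodes LXRβ (chromosome 7 of GRCm38, 44549616 to 44553951, ENSMUSG00000060601), had 1682 counts in library 1 against 2866 in library 2 (71.9 and 69.7 CPM). Nr1h3, which encodes LXRα (chromosome 2, 91184061 to 91202834, ENSMUSG00000002108), had 53 and 93 counts, or 2.27 CPM (exact 95% Poisson interval 1.70 to 2.97) and 2.26 CPM (1.82 to 2.77). In CPM neither gene differed between the libraries beyond counting error, since the interval of the log2 ratio was −0.13 to 0.04 for Nr1h2 and −0.51 to 0.51 for Nr1h3. With TMM, which moved all log2 ratios up by 0.25, Nr1h2 was at 0.20 and Nr1h3 at 0.25. In TPM, which scales counts by exon length so that genes can be compared, Nr1h2 exceeded Nr1h3 by 23.8-fold in library 1 (exact binomial interval 18.1 to 31.9) and by 23.1-fold in library 2 (18.8 to 28.7). Divided by the longest transcript in place of all exons, the ratio was 31.5 and 30.6. The level of Nr1h3 lay at the 19.9th and 22.3rd percentile of the counted genes, and that of Nr1h2 at the 80.5th and 83.1st.

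The 2 efflux transporters were abundant, and both were lower in library 2. ABCA1 passes cholesterol and phospholipid to lipid-poor apolipoproteins, and ABCG1 passes cholesterol to mature lipoprotein particles. Abca1 (chromosome 4, 53030787 to 53159895, ENSMUSG00000015243) had 6384 counts in library 1 against 5333 in library 2 (273 and 129.6 CPM). Abcg1 (chromosome 17, 31057698 to 31115777, ENSMUSG00000024030) had 8494 and 6144 counts, or 363 and 149 CPM. Library 2 thus held fewer raw counts of each, although it was 1.76 times as deep. The log2 ratio was −1.07 for Abca1 (exact conditional binomial interval −1.13 to −1.02) and −1.28 for Abcg1 (−1.33 to −1.24). With TMM scaling it was −0.82 and −1.03, so that only Abcg1 stayed past 2-fold. The balance of the pair moved less than either gene, as Abcg1 exceeded Abca1 per exon length by 1.89-fold in library 1 (interval 1.83 to 1.95) and by 1.64-fold in library 2 (1.58 to 1.70).

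The start of Abca1 is shown because its promoter is a textbook target of the LXRs, whose site is a direct repeat of AGGTCA with 4 bases of any kind between. RefSeq (GRCm38.p6) windows of 300 bases around the transcription start were at hand for 7 of the 10 genes. The 250 bases before the start of Abca1 (chr4:53159896-53160145, minus strand) follow, with capitals for the E-box CACGTG at −147 to −142 and for the nearest match to the repeat at −67 to −52.
Abca1: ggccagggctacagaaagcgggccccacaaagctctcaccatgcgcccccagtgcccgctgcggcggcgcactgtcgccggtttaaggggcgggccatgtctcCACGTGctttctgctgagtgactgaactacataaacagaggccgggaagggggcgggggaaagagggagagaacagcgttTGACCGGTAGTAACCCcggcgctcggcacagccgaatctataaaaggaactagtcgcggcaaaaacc
Abca1 repeat on the other strand: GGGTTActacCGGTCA
The repeat has 3 mismatches to that pattern, a number allowed after the window had been read. Searched on both strands with up to 3 mismatches, 21.9% of 32851 windows held a match, and Abca1 was the only one of the 7 genes that did. With up to 2 mismatches 3.02% of windows held one, and none of the 7 genes. CACGTG stood in 7.15% of windows, and in those of Abca1 and Plin2. A match is only a run of letters, and no binding was measured in these samples.

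Transcript length moved with this difference across all genes. The longest annotated transcript of Abca1 has 10262 bases and that of Abcg1 has 5832. When the counted genes were split into 10 bins of equal size by transcript length, the median log2 ratio was 0.17 in the bin from 1657 to 2143 bases, where 10.5% of genes were more than 2-fold lower in library 2. It was −1.05 in the bin from 6443 bases up, where 52.6% of genes were. Within the interquartile range of GC content, a restriction added after seeing the data, the median of the bin of longest transcripts was −1.14. In the bin of both GC content and length that holds Abca1, the 138 genes had a median log2 ratio of −1.09, and 56.5% of them were more than 2-fold lower in library 2. For Abcg1 the 118 genes of its bin had a median of −1.24, and 59.3% were lower by that much. The log2 ratio minus the median of the bin was 0.01 for Abca1 and −0.05 for Abcg1. Thus the transporters differed between the mice by about as much as other genes of like length and GC content. After this adjustment none of the 10 genes was past 2-fold, against 22.3% of all genes.

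**Figure D2:**
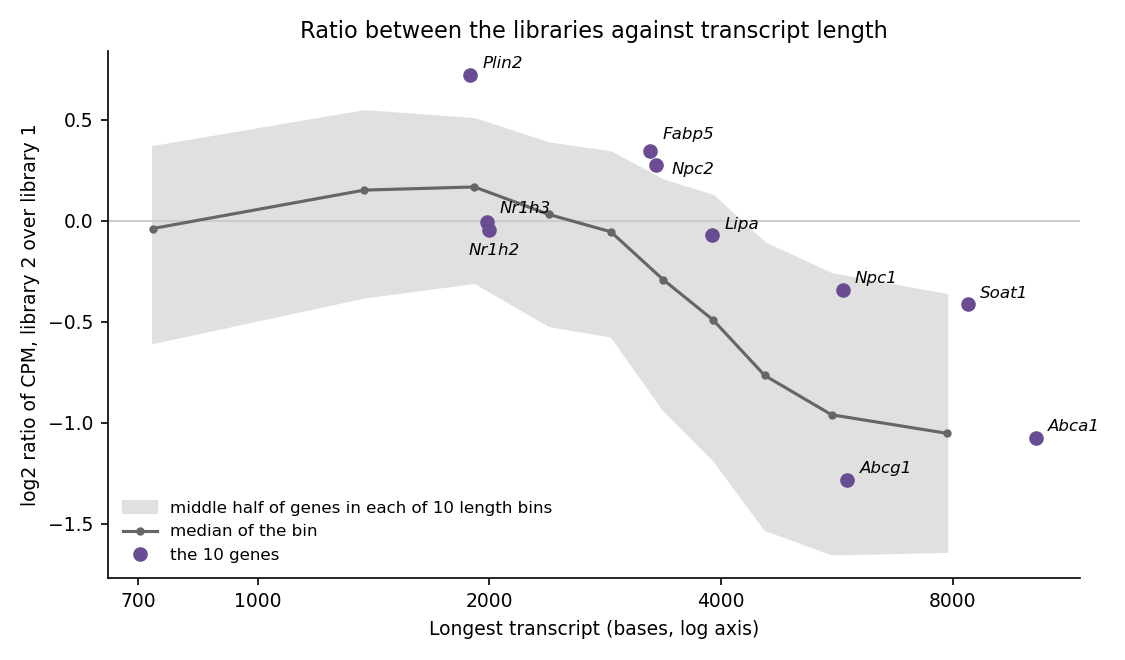
Log2 ratio of CPM (library 2 over library 1) against the length of the longest transcript in bases (log axis). The line and grey band show the median and interquartile range of the counted genes in 10 length bins, from 0.17 in the third bin to −1.05 in the last, and points are the 10 genes. Abcg1 lies inside the band, Plin2, Fabp5 and Npc2 lie above it, and Abca1 and Soat1 lie beyond its right end, which is drawn to the median length of the last bin.

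The lysosomal genes included the most abundant of the 10. All 3 were within 2-fold in CPM, where 31.7% of all counted genes were past it. Npc2 (chromosome 12, 84754562 to 84773152, ENSMUSG00000021242) had 12273 counts in library 1 against 26125 in library 2 (525 and 635 CPM), at percentiles 98.2 and 98.5 of the counted genes. Its log2 ratio was 0.27 (interval 0.24 to 0.31). Lipa (chromosome 19, 34492318 to 34527474, ENSMUSG00000024781) had 4049 and 6779 counts, or 173 and 165 CPM, with a log2 ratio of −0.07 that turned to 0.18 with TMM. Npc1 (chromosome 18, 12189693 to 12236400, ENSMUSG00000024413) had 4335 and 6023 counts, or 185 and 146 CPM, with a log2 ratio of −0.34. Before any adjustment for GC content and length, counts of Npc2 and Npc1 therefore stood in different proportion in the 2 libraries. Npc2 exceeded Npc1 per exon length by 5.89-fold in library 1 (interval 5.69 to 6.10) and by 9.03-fold in library 2 (8.78 to 9.28). Relative to the genes of their own GC and length bins, whose medians were −0.35 and −0.98, the adjusted log2 ratios of Npc2 and Npc1 were close to each other at 0.62 and 0.64, and that of Lipa was 0.04. Counts of Npc1 are less certain, because 4.52% of its annotated exon bases lie over exons of Rmc1 on the opposite strand and the strand setting of the counting is not given in the sources used here. Rmc1 had 710 and 2158 counts.

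Plin2, one of the storage and carrier genes, had the highest ratio of library 2 over library 1 among the 10. Plin2 (chromosome 4, 86648386 to 86670060, ENSMUSG00000028494) had 1495 counts in library 1 against 4345 in library 2 (63.9 and 105.6 CPM). Its log2 ratio was 0.72 (interval 0.64 to 0.81), higher than that of 90.7% of the counted genes. It was 0.97 with TMM and 0.54 after the GC and length adjustment. Soat1 (chromosome 1, 156424525 to 156474331, ENSMUSG00000026600) had 2740 and 3621 counts, or 117 and 88.0 CPM, with a log2 ratio of −0.41. Its adjusted ratio was 0.40, since the genes of its bin had a median of −0.82. Fabp5 (chromosome 3, 10012548 to 10016607, ENSMUSG00000027533) had 150 and 335 counts, or 6.42 CPM (interval 5.43 to 7.53) and 8.14 CPM (7.29 to 9.06). Fabp5 has 5 processed pseudogenes that match 336 to 409 bases of its coding transcript of 987 bases at 93.6% to 98.3% identity. Their counts were 0 to 2 in each library, and reads shared with them could have been lost in counting. Plin2 and Nr1h2 have 1 pseudogene each by the same search, with at most 2 counts.

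**Figure D3:**
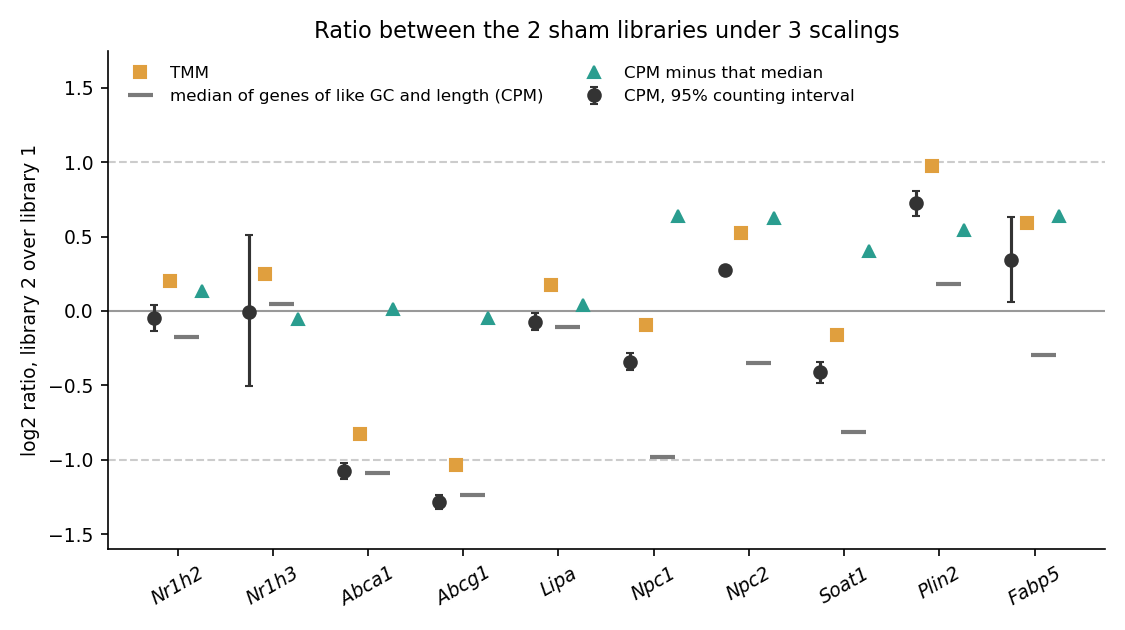
Log2 ratio of library 2 over library 1 for each gene in CPM (circles, with exact 95% counting intervals), with TMM (squares), and after subtracting the median of genes of like GC content and length (triangles), with that median as a bar. Dashed lines mark 2-fold. Abca1 and Abcg1 move from −1.07 and −1.28 to near 0, while Npc1, Npc2, Fabp5, Plin2 and Soat1 lie from 0.40 to 0.64 after the adjustment.

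Per exon length the same genes stood at both ends of the order in the 2 libraries, and those between changed places. Npc2 stood first with 271 ± 4.92 TPM (SD, n = 2 libraries), and its 2 libraries did not overlap those of the next gene. Abcg1 followed with 94.2 ± 67.0 TPM, Lipa with 64.2 ± 11.99, Plin2 with 60.3 ± 12.1, Nr1h2 with 54.3 ± 9.48, Abca1 with 51.8 ± 32.7, Npc1 with 38.1 ± 11.99 and Soat1 with 27.3 ± 9.51 (SD, n = 2). Each gene from Abcg1 to Npc1 overlapped the next in the range of its 2 libraries. Each neighbouring pair from Abcg1 to Npc1 also stood in opposite order in the 2 libraries, so their order did not hold beyond the spread between mice. The trend of the ratios with transcript length remains in TPM, because each gene is divided by the same length in both libraries. Npc1 was above Soat1 within each library, with 46.6 against 34.0 TPM in library 1 and 29.6 against 20.6 TPM in library 2, and Soat1 was number 8 in both. Fabp5 with 5.17 ± 0.0818 TPM and Nr1h3 with 2.31 ± 0.356 TPM (SD, n = 2) stood below all others without overlap. Some lengths are uncertain, because retained introns count as exons in the annotation. Divided by the longest protein-coding transcript, a choice made after seeing the data, Fabp5 had 13.8 TPM, Lipa had 108 TPM and stood second, and Npc1 had 61.0 TPM and stood above Abca1. No test was made, as there is a single group.

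**Figure D4:**
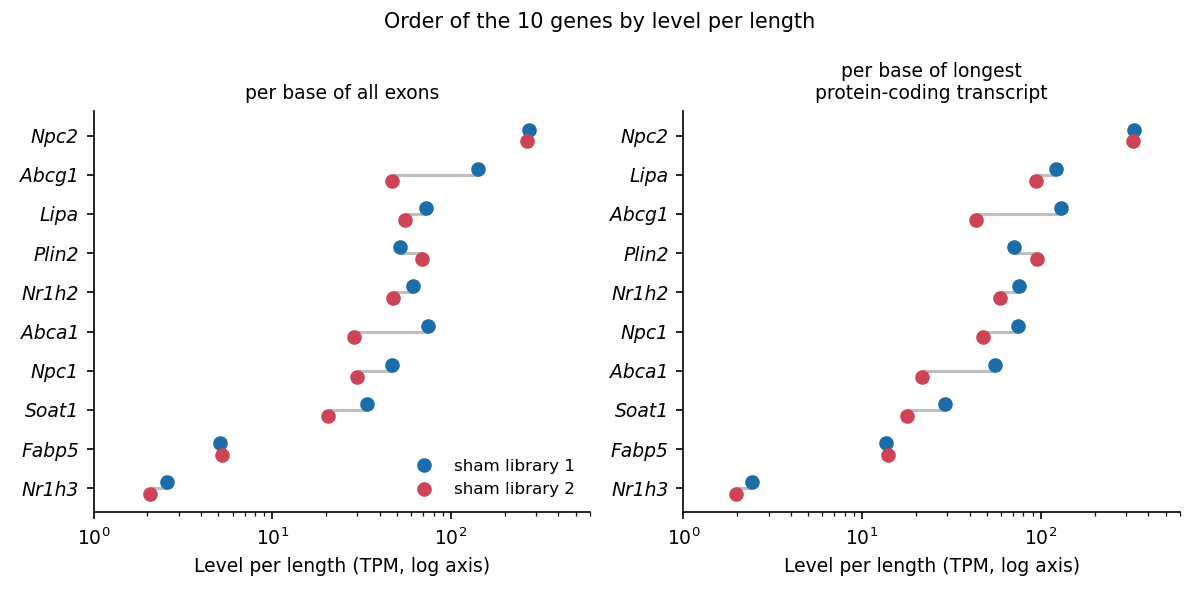
Level per length (TPM, log axis) of the 10 genes, ordered by the mean of sham library 1 (blue) and sham library 2 (red), with counts divided by all exon bases (left) or by the longest protein-coding transcript (right). Npc2 stands first and Fabp5 and Nr1h3 last in both panels, and the ranges of most genes between them overlap.

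The wider lipid handling program was read from 55 other genes in 8 lists. Of these, 47 passed the count filter, and 6 were more than 2-fold higher and 13 more than 2-fold lower in library 2, with a median log2 ratio of −0.16, where 5.74% of all counted genes were higher and 25.9% lower. With TMM 8 were higher and 10 lower, with a median of 0.09, where 8.78% and 19.7% of all counted genes were. Among the 9 partners and targets of the LXRs, 2 were higher and 4 lower, beside the same 5.74% and 25.9% of all counted genes. Apoe, the main lipoprotein component of the brain and the acceptor for exported cholesterol, was by far the most abundant with 4213 and 4122 CPM. The receptor partners Rxra and Rxrb had 35.2 and 15.1 CPM and 116.7 and 56.1 CPM. Srebf1, a regulator of fatty acid synthesis, had 79.2 and 20.5 CPM, and Mylip, which encodes a ubiquitin ligase, had 242 and 107 CPM. Rxrg had 20 and 84 counts and Apoc1 13 and 46 counts, both more than 2-fold higher in library 2 in CPM. With TMM only Srebf1 of the 4 lower genes stayed past 2-fold, at −1.70, and after the GC and length adjustment only Mylip, at −1.20.

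Of the other ABC transporters of lipids, 4 of 5 counted genes were more than 2-fold lower in library 2, as were 25.9% of all counted genes. The longest transcripts of these 4 have 6384 to 8033 bases, and in the 2 bins of longest transcripts 48.0% and 52.6% of all genes were lower by that much. Abca9 was the most abundant with 369 and 104 CPM, Abca3 had 65.1 and 7.97 CPM, Abca7 37.3 and 7.29 CPM, and Abca2 18.6 and 2.55 CPM. Abcg2 was the exception with 50.4 and 52.4 CPM. After the adjustment Abca3 and Abca9 remained past 2-fold, at −1.61 and −1.12. Of the lipoprotein uptake genes, Lrp1, a large receptor for lipoproteins that carry apolipoprotein E, was the most abundant with 1034 and 170 CPM. Its log2 ratio was −2.60, and −0.62 after the adjustment.

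Of all counted genes 31.7% differed by more than 2-fold in CPM, which is the background for the lists that follow. Of the other lysosomal genes 8 of 9 were within 2-fold. Psap, which encodes the precursor of the saposins, had 2421 and 2107 CPM. The exception was Galc, which breaks down the myelin lipid galactosylceramide, with 18.5 and 5.83 CPM. All 4 counted sterol transfer genes were within 2-fold in CPM (with TMM Stard4 was higher, at 1.11), Gramd1a being the most abundant with 115.0 and 93.8 CPM. Of the other nuclear receptors, Ppard had 4.70 and 2.63 CPM and Pparg 1.58 and 0.802 CPM, both within 2-fold in CPM, though Pparg was at −1.17 after the adjustment, and Ppara was not counted in both libraries. Fabp3 was the only other fatty acid-binding gene counted, with 14 and 29 counts. Fabp7 had 9 and 56 counts, and Fabp4 2 and 6.

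The other lipid droplet genes included most of those that were higher in library 2. Of 11 counted, 4 were more than 2-fold higher in library 2 and 2 lower, beside 5.74% and 25.9% of all counted genes. Dgat1 and Dgat2, the enzymes that complete triglyceride synthesis, had 38.8 and 115.0 CPM and 9.28 and 50.3 CPM. Plin3, a droplet coat protein like Plin2, had 35.4 and 71.4 CPM, and Plin5 had 10 and 84 counts. Soat2, the second cholesterol esterifying enzyme, had 9.49 and 3.79 CPM, and Lipe, which encodes hormone-sensitive lipase, 888 and 576 counts. Pnpla2, the first lipase of triglyceride breakdown, was the most abundant with 105.2 and 115.5 CPM. After the adjustment the median of the list was 1.05, with 6 genes higher (Plin3, Plin5, Dgat1, Dgat2, Abhd5 and Mgll) and 1 lower (Soat2) past 2-fold, against 9.69% and 12.7% of all genes. Of these 6, Abhd5 (23.1 and 43.3 CPM) and Mgll (80.1 and 86.9 CPM) were within 2-fold in CPM. Plin1 and Plin4 had no counts in either library. The sums of several marker lists were also higher in library 2. Immature neutrophil markers went from 1655 to 31183 CPM over 9 genes with none at 0 in either library. Mature neutrophil markers went from 3523 to 31667 CPM, monocyte markers from 707 to 3353 CPM and choroid plexus markers from 24.5 to 370.2 CPM. Basophil or mast cell markers went from 0.0855 to 161 CPM, and markers of dividing cells from 19.2 to 92.3 CPM over 5 genes. Oligodendrocyte and neuron sums rose less, and those of microglia, border macrophages, astrocytes and endothelial cells were lower. The part of any of these cells in the droplet genes was not tested.

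**Figure D5:**
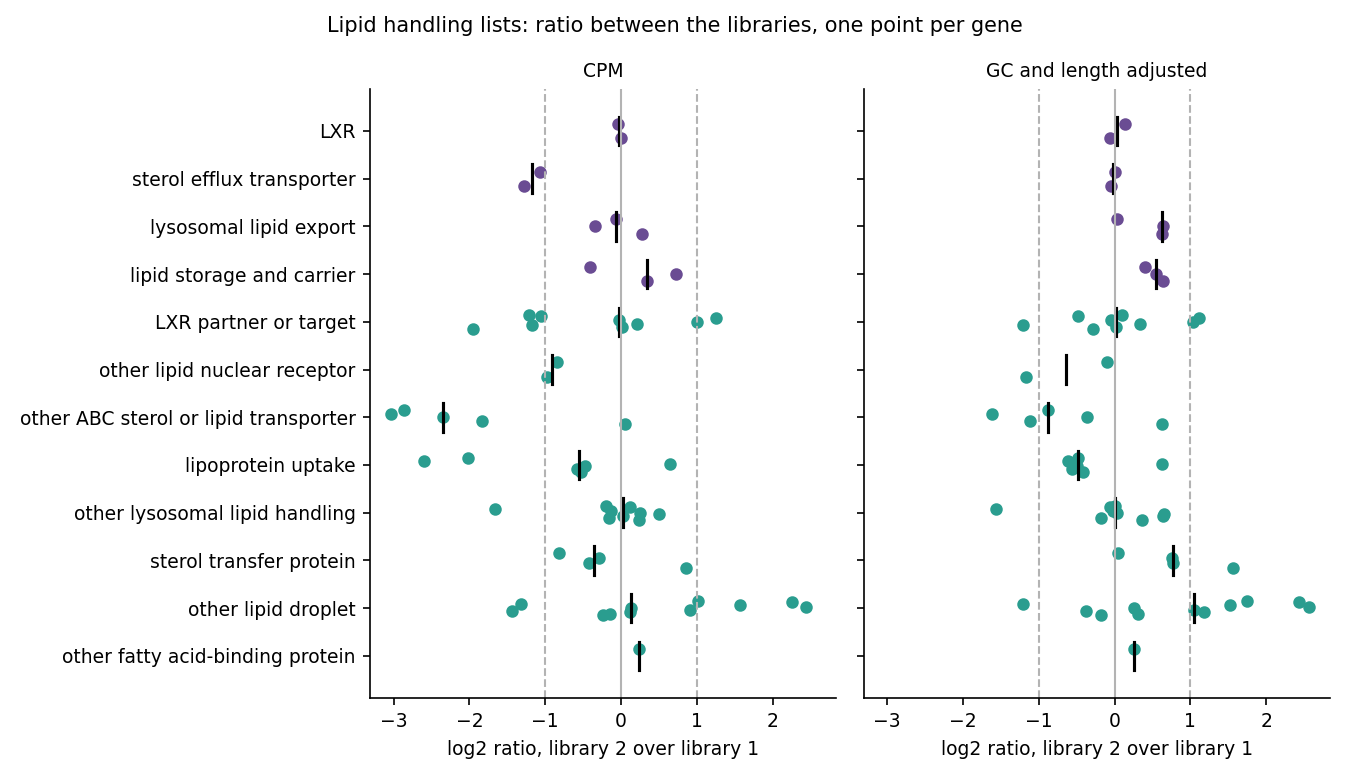
Log2 ratio of library 2 over library 1 for each counted gene (points) of the 4 groups of the 10 genes (purple) and the 8 other lists (green), in CPM (left) and after the GC and length adjustment (right), with the median of each list as a black bar and 2-fold as dashed lines. The bar of the efflux transporters moves from −1.18 to −0.02, and that of the other lipid droplet genes from 0.14 to 1.05.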

How the data were processed

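RNA of sorted sham microglia (2 libraries, SMART-Seq HT cDNA, paired-end) was measured. The deposited values are raw counts per Ensembl gene, mapped by the authors to GRCm38 with HISAT2 and counted with HTSeq. Versions, annotation release and strand setting are not given in the sources used here. Starts are given from 1. Lengths, GC content and names came from GENCODE M21 (GRCm38), which matched 53706 of 53801 identifiers. CPM, TPM, exact intervals and ratios were computed with pandas 2.3.3, scipy 1.17.1 and numpy 2.4.6 in Python 3.11.15, figures with matplotlib 3.10.9, copies (at least 85% identity over 250 bases) with blastn 2.17.0, and scaling and dispersion with R 4.3.3, edgeR 4.0.16 and DESeq2 1.42.0. The adjustment subtracted the median log2 ratio of counted genes in the same of 10 GC and 10 length bins (GC alone under 20 genes). Other scalings, folds, filters and lengths, and leaving out each library, were tried as alternatives. Steps were tested on simulated data. Named were the 10 genes, and of each list the most abundant gene and those past 2-fold. Other genes, named for context, were chosen after their values were seen. The members and lists were chosen with earlier results of these data known. Some genes of the lists are not reported here by name.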

Additional observations from a re-analysis of the deposited data

How the results depend on the processing

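No paired analysis was possible because both samples are of 1 group. Leaving out a library of 2 says nothing about stability, and leaves no ratio between libraries. Without each library in turn, the summed level was 1499 to 1782 CPM, and the ratio per length was 23.1 to 23.8 for Nr1h2 over Nr1h3, 1.64 to 1.89 for Abcg1 over Abca1 and 5.89 to 9.03 for Npc2 over Npc1. Of the 10 genes, 2 differed by more than 2-fold, beside 31.7% of all counted genes. With TMM or DESeq2 size factors 1 did, beside 28.5% and 28.3%. With totals without the neutrophil genes 1 did, beside 4054 of the 13445 counted genes. At 4-fold 0 did, beside 1198 of the 13445, and after the GC and length adjustment 0 did, beside 22.3%. Under that adjustment the sign of Abca1 reversed to 0.011, because its bin has nearly the same ratio. Counted genes past the fold numbered 4257, and 6837 at 1.5-fold, 1198 at 4-fold and 7302 with at least 1 count. TMM moved the median log2 ratio of all genes from −0.26 to −0.01, and the share lower in library 2 from 25.9% to 19.7%. Of the 47 other pathway genes counted, 13 were more than 2-fold lower in library 2, beside 25.9% of all counted genes. With the adjustment 6 were, beside 12.7%. Those more than 2-fold higher numbered 6, beside 5.74%, and 9 with the adjustment, beside 9.69%. With the longest transcript, the mean ratio was 31.1 for Nr1h2 over Nr1h3 and 2.18 for Abcg1 over Abca1, and 30.6 and 2.18 with the longest protein-coding transcript. The biological coefficient of variation was 0.477 to 0.550. The protein-coding length and the alternatives for pathway lists were added after seeing the data.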

Other observations

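Markers of other cells were also read, and several sums were carried by 1 or 2 genes. Mature neutrophil genes had 3523 CPM in the first library and 31667 CPM in the second. Of these, 8 of 9 were more than 2-fold higher there, beside 5.74% of all counted genes. Basophil or mast cell genes had 2 and 6638 counts. The 6 monocyte genes had a median log2 ratio of 0.03. Their sum of 707 and 3353 CPM was mostly Chil3 (455 and 2901 CPM) and Ly6c2 (90.3 and 301.8 CPM), while Ccr2 had 65.1 and 76.3 CPM and Fn1 31.3 and 15.6 CPM. Border macrophage genes had 709 and 338 CPM. Of these, 3 of 7, Mrc1, Cd163 and F13a1, were more than 2-fold lower, beside 25.9% of all counted genes. The other 4 were within 2-fold, with log2 ratios of −0.41 for Lyve1, −0.31 for Pf4, −0.23 for Cbr2 and 0.32 for Ms4a7. The choroid plexus sum of 24.5 and 370.2 CPM was mostly Ttr, with 21.9 and 356 CPM. The astrocyte sum of 232 and 191 CPM was mostly Slc1a3, with 219 and 169 CPM, while Aldoc had 7.87 and 14.2 CPM and Gja1 1.24 and 3.96 CPM. Oligodendrocyte genes had 100.6 and 111 CPM, endothelial genes 17.6 and 15.9 CPM (mostly Pecam1, with 16.1 and 14.4 CPM) and neuron genes 2.95 and 4.86 CPM. The single genes were named after their values were seen.

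The genes nearest to Npc2 in log2 CPM over the 2 libraries were Coro1b, Ldha and Pkm, at distances of 0.0021 to 0.047. Those nearest to Abcg1 were Rasal3, Trpc4ap and Pnrc1, at 0.055 to 0.065. With 2 libraries such likeness is a description of level only.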
